A study of Mus musculus with 89 samples.

Results

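Pde10a and 8 genes by which striatal projection neurons are recognised (Drd1, Drd2, Adora2a, Ppp1r1b, Penk, Tac1, Rgs9 and Rarb) were followed in the forebrain of 2 mouse models of Down syndrome. A gene was represented by a probe set that carried its symbol and no other. Of the 9 genes, 8 had such a probe set among the 22206 in the deposited table, 1 each, and Adora2a was not analysed here. Pde10a was the only one of the 8 measured genes that changed. It was 1.39-fold higher in Ts65Dn than in euploid forebrain, in 6 of 6 litters, and no such rise was measured in Ts66Yah.

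In Ts65Dn, a freely segregating extra chromosome holds a piece of chromosome 16 (Mmu16), which shares many genes with human chromosome 21, and a centromeric piece of chromosome 17 (Mmu17), which has none and which includes Pde10a. The Mmu17 piece was removed to make Ts66Yah, so that Pde10a and the other 8 genes are all present in the normal copy number there. In Ts65Dn the other 8 also have the normal copy number, and Pde10a alone has an extra copy. The groups were 23 Ts65Dn embryos with 18 euploid embryos of the same colony (EupTs65Dn), and 24 Ts66Yah embryos with 24 euploid embryos of theirs (EupTs66Yah), each from 6 litters. All were embryos at embryonic day 18.5, untreated, with 1 array each of total RNA from dissected brain hemispheres, described as forebrain. Both strains were kept on a B6 X C3H mixed background. Ts65Dn females, which alone can pass on the extra chromosome, were mated with B6EiC3Sn.BLiAF1/J males. The Ts66Yah colony came from 3 founder females mated with the same hybrid males and was expanded by in vitro fertilization from the sperm of 4 males. Females and males were 13 and 10 in Ts65Dn, 9 and 9 in EupTs65Dn, 13 and 11 in Ts66Yah, and 11 and 13 in EupTs66Yah.

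Most neurons of the striatum are inhibitory medium spiny neurons, and they fall into a pair of classes with opposite responses to dopamine. Those of the direct pathway carry the D1 dopamine receptor, which raises cAMP, and make substance P from Tac1. Those of the indirect pathway carry the D2 dopamine receptor, which lowers cAMP, and the adenosine receptor Adora2a, and make enkephalin from Penk. Pde10a, a phosphodiesterase that breaks down cAMP and cGMP, is concentrated in both classes, where these receptors also act on cAMP.

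The deposited values are log2 RMA signals, in which a difference of 1 is a doubling. Array means lay between 5.26 and 5.33 in Ts65Dn, 5.29 and 5.31 in EupTs65Dn, 6.37 and 6.40 in Ts66Yah, and 6.05 and 6.41 in EupTs66Yah. Levels were therefore compared only within a colony. EupTs66Yah replicate 16 stood apart, with a standard deviation over its probe sets of 1.13 against a group median of 2.35. It is called the low-spread array. The mean of 38 Mmu16 probe sets lay nearer the opposite genotype's median in 4 more arrays (Ts65Dn replicate 18, Ts66Yah replicates 13 and 24, EupTs66Yah replicate 24). In 16 arrays the labelled sex was not matched by 3 Y-linked genes (Uty, Kdm5d and Eif2s3y), among them 1 of those 4. No label was changed.

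Signals of different probe sets are not on 1 scale, so the following counts are a description of the measurement only. All 8 genes had a mean signal at or above the median probe set in the Ts65Dn colony, and 7 of 8 did so in the Ts66Yah colony, where Drd2 lay below it. Of 17 striatal transcription factors 14 lay at or above that median in the Ts65Dn colony and 13 in the Ts66Yah colony. Of 14 probe sets for cortical excitatory neurons, 14 lay at or above the median in the Ts65Dn colony and 13 in the Ts66Yah colony. Probe sets for midbrain and hindbrain did so in 3 of 16 and 8 of 16 cases in the same colonies. In such bulk samples fewer cells of a type and less RNA per cell cannot be told apart.

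Pde10a rose in Ts65Dn. Its log2 signal had a lowest, median and highest value of 8.69, 9.01 and 9.31 in the 23 Ts65Dn embryos, against 8.07, 8.54 and 8.87 in the 18 EupTs65Dn embryos. The groups overlapped little: 20 of 23 Ts65Dn embryos lay above every euploid embryo, 15 of 18 euploid embryos lay below every Ts65Dn embryo, and 23 of 23 Ts65Dn embryos exceeded the euploid median. The means were 9.01 ± 0.158 in Ts65Dn (SD, n = 23) and 8.54 ± 0.174 in EupTs65Dn (SD, n = 18). The difference was 0.47 on the log2 scale (SE 0.0551), a fold of 1.39 with a 95% interval of 1.28 to 1.50. It passed the threshold of 10% in limma (adjusted p = 1.32e-07 over all probe sets), and a two-sided permutation test gave p = 1e-05, the smallest that 100000 resamples can give. By p, Pde10a ranked 14 among the 22206 probe sets, and 25 without Ts65Dn replicate 18.

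The rise was present in each litter of the Ts65Dn colony. Litter means of Pde10a differed least in TS11, at 9.08 in 4 Ts65Dn embryos and 8.71 in 3 EupTs65Dn embryos. They differed most in TS113, at 9.12 in 3 Ts65Dn embryos and 8.58 in 4 EupTs65Dn embryos. The differences between littermate groups thus spanned 0.37 to 0.54 over the 6 litters, and in 6 of 6 litters every Ts65Dn embryo lay above every euploid littermate. Ts65Dn replicate 18, the array whose Mmu16 genes were at the euploid level, had 8.70, the second lowest Pde10a value of its group. Without it the fold was 1.40 (limma adjusted p = 2.43e-08), in a test that 0.54% of probe sets passed.

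**Figure D1:**
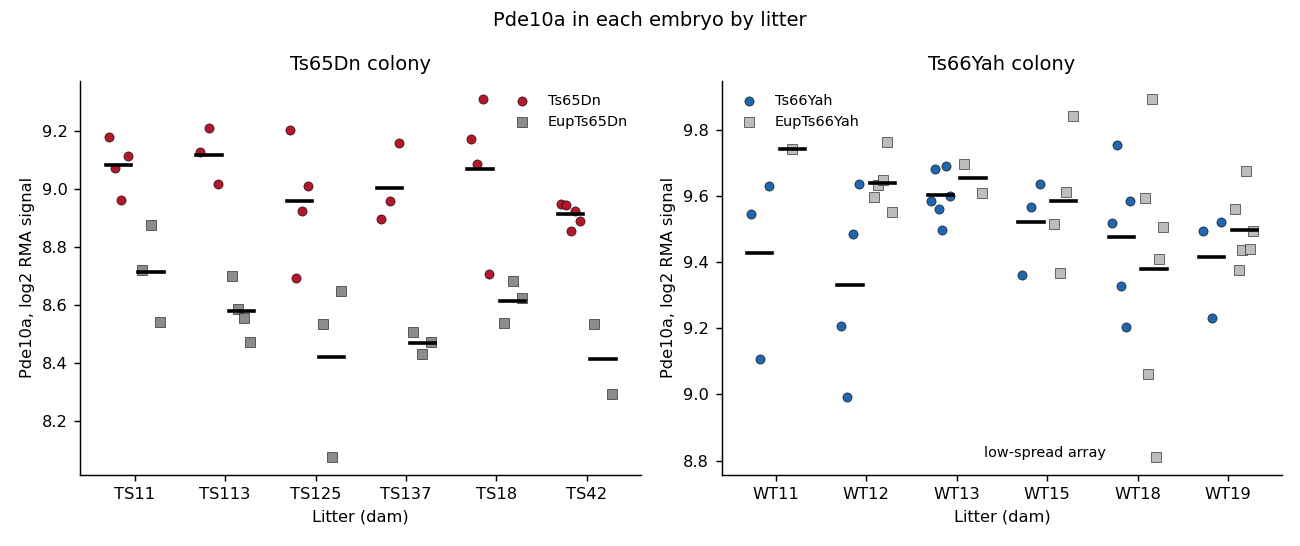
Pde10a signal (log2 RMA) of each embryo by litter, with Ts65Dn beside EupTs65Dn in the left panel and Ts66Yah beside EupTs66Yah in the right panel; black bars are litter means and the 2 panels have separate axes. In the left panel the Ts65Dn mean is above the euploid mean in 6 of 6 litters, by 0.37 to 0.54; in the right panel the Ts66Yah mean is above in 1 of 6, the litter of the low-spread array.

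Pde10a did not pass in Ts66Yah. Its lowest, median and highest values were 8.99, 9.53 and 9.75 in 24 Ts66Yah embryos, against 8.81, 9.58 and 9.89 in 24 EupTs66Yah embryos, and 0 of 24 Ts66Yah embryos lay above every euploid embryo. The means were 9.47 ± 0.199 in Ts66Yah and 9.53 ± 0.232 in EupTs66Yah (SD, n = 24 each). The fold was 0.959 (95% interval 0.870 to 1.06, limma adjusted p = 0.671), or 0.939 (0.867 to 1.02, adjusted p = 0.535) without the low-spread array, whose Pde10a value of 8.81 was the lowest of its group. The upper bounds of both intervals lay below the lower bound of 1.28 in Ts65Dn. By litter, Pde10a was lower in Ts66Yah than in EupTs66Yah in 5 of 6 litters, and in 6 of 6 once the low-spread array was left out.

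The effect on Pde10a differed between the models. In 1 limma fit of all 89 arrays the effect in Ts65Dn minus that in Ts66Yah was 0.53 (SE 0.0915, adjusted p = 0.00196), a ratio of folds of 1.45 with a 95% interval of 1.27 to 1.64. Of 22206 probe sets 2 passed that test (0.00901%), and Pde10a had the smallest p with all arrays. The other was Cep43, a centrosomal protein gene outside the list, with 0.48 (adjusted p = 0.0646). Whether Cep43 lies on the Mmu17 piece that is extra only in Ts65Dn was not examined. Without the low-spread array the Pde10a difference was 0.56 (adjusted p = 2.32e-06), in a test that 0.149% of probe sets passed. Pde10a then ranked 2 by p. Without that array and the 4 at the other genotype's level the Pde10a difference was 0.59 (adjusted p = 9.37e-07). In that setting 0.153% of probe sets passed and Pde10a ranked 3 by p.

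Not all of the protein-coding genes next to Pde10a in the order of the reference gene table passed in Ts65Dn. Which of them lie on the extra Mmu17 piece was not examined. A neighbour without a rise may therefore have had the normal copy number. Of the 3 measured genes on one side, Sft2d1, a membrane protein gene, was 1.43-fold higher in Ts65Dn (95% interval 1.31 to 1.56, adjusted p = 2.59e-07), and Prr18 was 1.38-fold higher (1.24 to 1.55, adjusted p = 0.000206). Sft2d1 averaged 8.45 ± 0.226 in Ts65Dn and 7.93 ± 0.132 in EupTs65Dn, and Prr18 averaged 6.17 ± 0.272 in Ts65Dn and 5.70 ± 0.227 in EupTs65Dn (SD, n = 23 and n = 18). T2, the nearest on that side, had a fold of 0.813 (adjusted p = 0.926) at a low signal, 2.11 ± 0.631 in Ts65Dn and 2.41 ± 0.734 in EupTs65Dn. On the other side none of the 3 passed in limma: 1700010I14Rik had a fold of 1.19 (95% interval 0.994 to 1.42, adjusted p = 0.875), Pabpc6 1.00 (0.874 to 1.15) and Qk, an RNA-binding protein gene of glia, 0.966 (0.911 to 1.02). Without Ts65Dn replicate 18 the fold of 1700010I14Rik was 1.20 (1.00 to 1.44, limma adjusted p = 0.825). Its mean was 4.57 in Ts65Dn and 4.32 in EupTs65Dn, and that of Pabpc6 was 2.43 in both. Like T2, both lay below the median probe set of the colony, 5.31, which limits what their folds show. In Ts66Yah none of the 6 neighbours passed with or without the low-spread array. Their folds without it ran between 0.820 for Pabpc6, whose unadjusted p was 0.0243 (adjusted p = 0.335), and 1.03 for 1700010I14Rik. The difference between the models did not pass for Sft2d1 in all arrays (0.38, adjusted p = 0.719) and passed without the low-spread array (0.58, adjusted p = 5.46e-06). For Prr18 it was 0.39 (adjusted p = 0.650) in all arrays and 0.45 (adjusted p = 0.0717) without that array.

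RefSeq gives Pde10a a pair of transcription starts with promoter entries on GRCm38.p6, both on the plus strand of chromosome 17. They are shown because Pde10a is the only member with an extra copy in Ts65Dn and the only one that passed there. Each runs from 250 bases before to 50 bases after a start. The arrays measured transcript, not promoter activity or start choice.
Pde10a, chr17:8801495-8801794: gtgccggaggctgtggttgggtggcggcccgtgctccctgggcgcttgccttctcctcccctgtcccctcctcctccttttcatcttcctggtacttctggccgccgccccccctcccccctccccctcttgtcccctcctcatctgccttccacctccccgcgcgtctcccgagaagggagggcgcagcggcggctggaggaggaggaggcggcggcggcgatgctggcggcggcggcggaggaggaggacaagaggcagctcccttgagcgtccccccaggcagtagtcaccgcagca
Pde10a, chr17:8849735-8850034: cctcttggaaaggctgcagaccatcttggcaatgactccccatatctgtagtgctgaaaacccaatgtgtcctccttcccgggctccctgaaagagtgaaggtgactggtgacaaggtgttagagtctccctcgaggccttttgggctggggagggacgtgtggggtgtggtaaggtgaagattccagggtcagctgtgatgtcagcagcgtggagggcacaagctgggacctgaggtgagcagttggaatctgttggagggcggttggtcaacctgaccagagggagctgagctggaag
The first is 71.3% G and C and the second 56.7%. Neither holds the cAMP response element TGACGTCA or its half-site TGACG on either strand, letters found in 1.79% and 20.8% of the 32851 RefSeq promoters of this length; each TGACGTCA also counts as a TGACG.

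None of the other 7 measured genes passed in Ts65Dn. Counting Pde10a, 1 of 8 members was called, against 0.491% of all probe sets. At an unadjusted p under 0.05 in limma the count was also 1 of 8, against 5.79% of all. The methods' t-test also called 1 of 8, a count given without the share of all probe sets called by that test. The adjusted p of the 7 in limma lay between 0.905 and 1.00. Their 95% intervals bound any change: for 6 of 7 the upper bound lay between 1.10-fold and 1.25-fold, below the lower bound of 1.28-fold of Pde10a, and for Drd2 it was 1.31-fold.

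Ppp1r1b encodes a phosphatase inhibitor that is present in both classes of medium spiny neuron and is switched on by cAMP. Its lowest, median and highest values were 5.78, 6.26 and 6.68 in Ts65Dn, against 5.61, 6.07 and 6.55 in EupTs65Dn, and the groups overlapped over most of their range. The fold was 1.11 (95% interval 0.984 to 1.25), with an unadjusted p of 0.0883 in limma and an adjusted p of 0.905. The highest Ppp1r1b value in Ts65Dn, 6.68, was that of replicate 18, the array at the euploid Mmu16 level, and the fold without it was 1.09. The same array also had the highest Ts65Dn values of Penk (8.40) and Rarb (8.18).

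Rgs9 encodes a regulator that shortens G protein signals and whose striatal form acts at dopamine receptors. It was 7.49, 7.78 and 8.27 (lowest, median, highest) in Ts65Dn and 7.32, 7.76 and 8.22 in EupTs65Dn. Values of the groups covered nearly the same range, and the fold was 1.02 (95% interval 0.932 to 1.11, adjusted p = 0.995). Rarb, a retinoic acid receptor that striatal neurons need for their development, was 7.35, 7.68 and 8.18 in Ts65Dn and 7.40, 7.73 and 8.05 in EupTs65Dn. Its fold was 0.998 (0.909 to 1.10, adjusted p = 0.999).

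Drd1 and Tac1 mark the direct pathway. Drd1 had a lowest, median and highest value of 5.20, 6.07 and 6.58 in Ts65Dn, against 4.81, 6.07 and 6.56 in EupTs65Dn, and a fold of 1.00 (95% interval 0.857 to 1.17, adjusted p = 1.00). Tac1 had 8.06, 8.55 and 8.94 in Ts65Dn, against 8.27, 8.49 and 8.84 in EupTs65Dn, and a fold of 1.03 (0.943 to 1.13, adjusted p = 0.982). For both genes the Ts65Dn embryos lay on either side of the euploid median, 11 of 23 above it for Drd1 and 15 of 23 for Tac1. By litter Drd1 was higher in Ts65Dn in 2 of 6 litters, with differences between -0.18 and 0.56, and Tac1 in 4 of 6, with differences between -0.11 and 0.29.

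Drd2 and Penk mark the indirect pathway. Drd2 had a lowest, median and highest value of 4.80, 5.64 and 6.32 in Ts65Dn, against 5.03, 5.39 and 6.05 in EupTs65Dn, and a fold of 1.11 (95% interval 0.951 to 1.31, adjusted p = 0.929). Penk had 7.59, 7.94 and 8.40 in Ts65Dn, against 7.63, 7.84 and 8.26 in EupTs65Dn, and a fold of 1.03 (0.938 to 1.14, adjusted p = 0.982). Drd2 varied most among the measured genes, with a within-group SD of 0.368 in the Ts65Dn colony where the median probe set had 0.322 and Pde10a 0.165. The interval of Drd2 is accordingly the widest of the 8 as a ratio of its bounds, and it includes the lower bound of Pde10a.

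**Figure D2:**
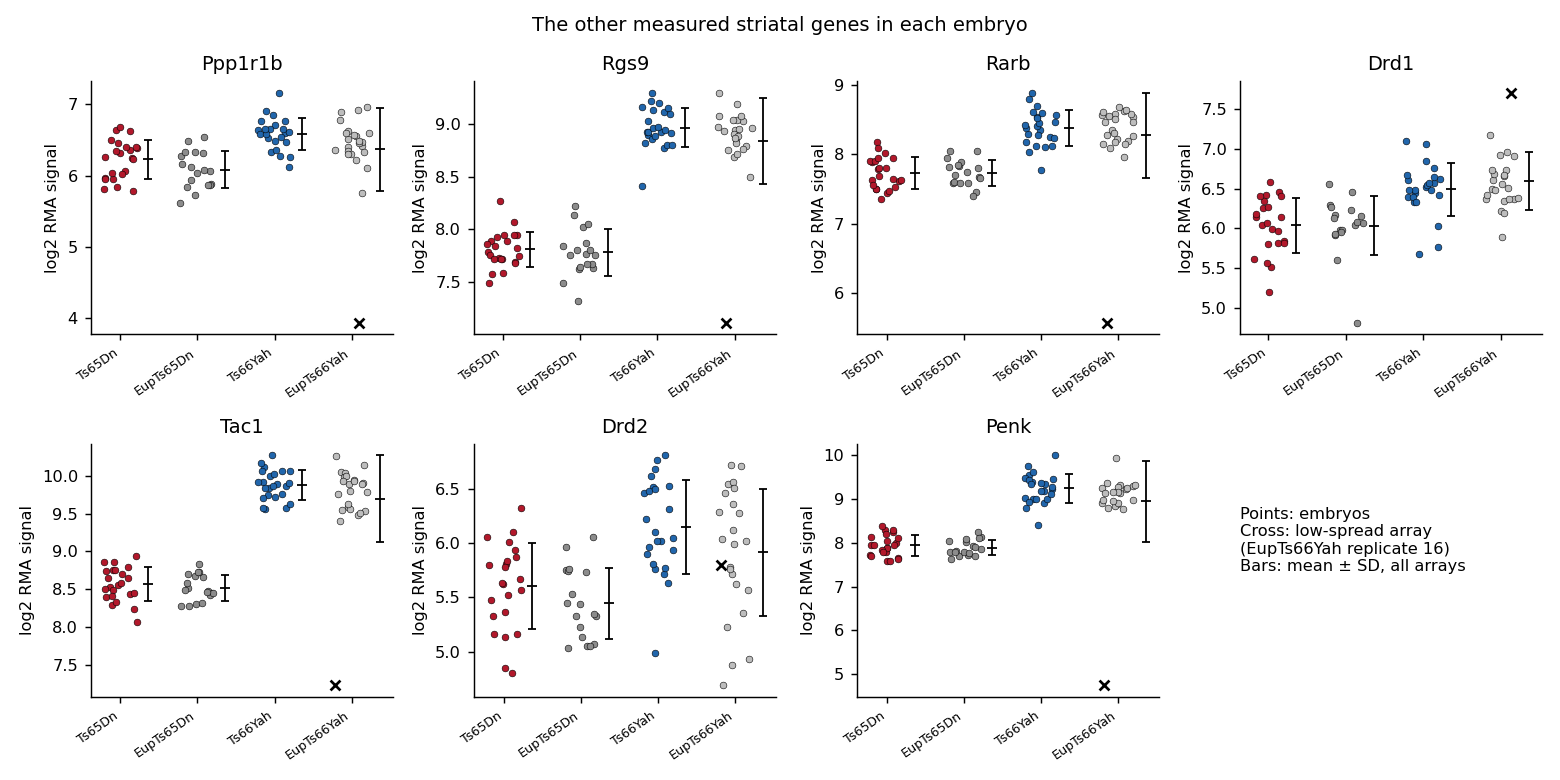
Signal (log2 RMA) of the other 7 measured genes in each embryo of Ts65Dn, EupTs65Dn, Ts66Yah and EupTs66Yah; points are embryos, bars are the mean ± SD and a cross marks the low-spread array. Within each colony the groups overlap for all 7 genes; levels of the 2 colonies are not comparable. The low-spread array is far below its group for Ppp1r1b, Rgs9, Rarb, Tac1 and Penk and above it for Drd1.

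In Ts66Yah 0 of 8 measured genes passed in limma, against 0.171% of all probe sets. At an unadjusted p under 0.05 the count was also 0, against 10.2% of all. Without the low-spread array 0 of 8 passed in limma, against 0.932%. The methods' t-test called 0 of 8 in all arrays, again without its share of all probe sets. The low-spread array moved several values. Penk was 8.41, 9.25 and 10.0 (lowest, median, highest) in the 24 Ts66Yah embryos, against 8.77 to 9.94 in 23 EupTs66Yah embryos and 4.75 in the low-spread array. Its fold was 1.22 with that array (95% interval 0.934 to 1.60) and 1.08 without it (0.956 to 1.22, adjusted p = 0.641).

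Rarb, Tac1, Rgs9 and Ppp1r1b shared this behaviour. Rarb was 7.77 to 8.89 in Ts66Yah, against 7.97 to 8.69 in 23 EupTs66Yah embryos and 5.58 in the low-spread array, and its fold was 1.08 with the array and 0.991 without it (95% interval 0.900 to 1.09). Ppp1r1b was 6.12 to 7.17 in Ts66Yah, against 5.75 to 6.97 in 23 EupTs66Yah embryos and 3.94 in that array, with folds of 1.16 and, without it, 1.08 (0.976 to 1.20). The folds of Tac1 were 1.13 and, without it, 1.05 (0.961 to 1.15), and those of Rgs9 were 1.09 and, without it, 1.04 (0.959 to 1.12). Drd1 differed in that the low-spread array was the highest EupTs66Yah embryo, at 7.71, and its fold was 0.927 with it and 0.959 without it (0.847 to 1.09). Drd2 hardly depended on it, with 1.18 and 1.17 (0.954 to 1.44), and ran between 4.98 and 6.81 in Ts66Yah, against 4.69 and 6.72 in EupTs66Yah.

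The test of the difference between models did not pass for any of these 7 genes in limma. Without the low-spread array the effect in Ts65Dn minus that in Ts66Yah lay between -0.073 for Drd2 and 0.062 for Drd1 on the log2 scale, with adjusted p between 0.946 and 0.990. The 95% interval of that difference, as a ratio of folds, was 0.728 to 1.24 for Drd2 and 0.882 to 1.15 for Rarb. For these genes the data therefore bound a difference between models less tightly than the change within each.

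**Figure D3:**
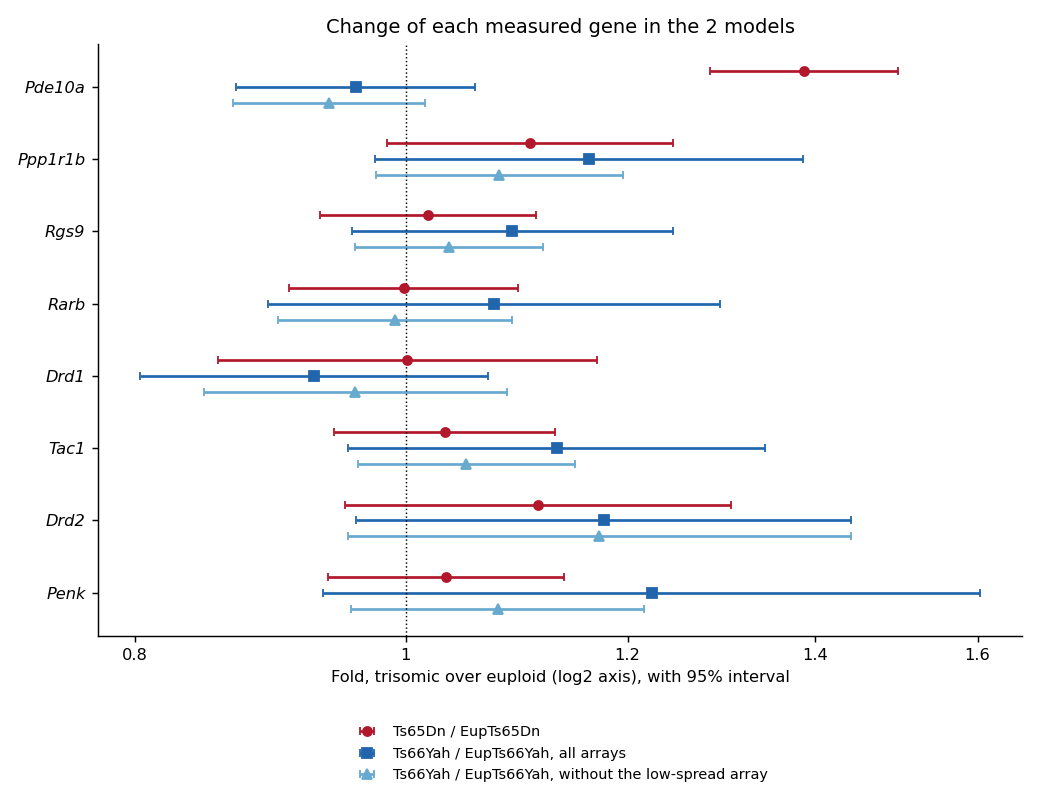
Fold of each measured gene, trisomic over euploid, on a log2 axis with 95% intervals from limma, for Ts65Dn (circles), Ts66Yah with all arrays (squares) and Ts66Yah without the low-spread array (triangles). The Ts65Dn interval of Pde10a (1.28 to 1.50) is the only one of the 24 that does not include 1.

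Rarb and Tac1 are shown with their promoters since the letters searched occur there, those of a retinoic acid response element and of the cAMP response element half-site. The Rarb letters searched, GTTCA and AGTTCA with any 5 bases between them on both strands, are those of the element by which retinoic acid is known to act on this gene, so its match follows from the choice of letters; 11 of 32851 promoters (0.0335%) hold them. Capitals mark the matches, at base -52 from the Rarb start and, for TGACG read on the opposite strand, at -197 and -43 from the Tac1 start. Promoter entries of RefSeq on GRCm38.p6 were found for 6 of the 9 genes.
Rarb, chr14:16575427-16575726, minus strand: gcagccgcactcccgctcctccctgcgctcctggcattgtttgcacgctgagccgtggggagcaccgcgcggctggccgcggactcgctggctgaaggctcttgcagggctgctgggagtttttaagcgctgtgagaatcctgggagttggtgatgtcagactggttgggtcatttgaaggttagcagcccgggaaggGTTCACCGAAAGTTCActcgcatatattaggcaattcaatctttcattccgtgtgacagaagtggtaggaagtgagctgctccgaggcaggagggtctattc
Tac1, chr6:7554811-7555110, plus strand: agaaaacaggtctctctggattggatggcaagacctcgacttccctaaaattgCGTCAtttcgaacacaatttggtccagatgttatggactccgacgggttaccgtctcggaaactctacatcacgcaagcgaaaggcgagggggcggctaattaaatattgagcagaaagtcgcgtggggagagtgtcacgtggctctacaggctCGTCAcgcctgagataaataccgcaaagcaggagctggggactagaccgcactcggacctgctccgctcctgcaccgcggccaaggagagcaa
A match describes letters in this window only. Neither gene passed in Ts65Dn or Ts66Yah, as given above.

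Genes that work beside the members were read from 13 further lists. In Ts65Dn 0 of 233 probe sets on these lists passed in limma, against 0.491% of all probe sets, and 18 (7.73%) had an unadjusted p under 0.05, against 5.79% of all. In Ts66Yah 0 of 233 passed in all arrays and 13 (5.58%) had an unadjusted p under 0.05, against 10.2% of all. Without the low-spread array 1 passed, Vim, an intermediate filament of radial glia, at 1.14-fold (95% interval 1.06 to 1.22, adjusted p = 0.0853), and 24 (10.3%) had an unadjusted p under 0.05, against 12.1%. Without that array and the 4 at the other genotype's level 3 passed, against 1.47% of all: Vim (1.16-fold, adjusted p = 0.0169), Aldh1a2 (1.32-fold, adjusted p = 0.0695) and Ppp1cc (0.908-fold, adjusted p = 0.0670). Medians below are log2 differences and stand beside medians over all probe sets of -0.0021 in Ts65Dn and, without the low-spread array, 0.0044 in Ts66Yah. With all arrays the Ts66Yah median over all probe sets was 0.043, and 58.6% of them had a higher mean in Ts66Yah, against 51.6% without that array. The share of all probe sets with a higher mean in Ts65Dn was 49.0%.

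No other phosphodiesterase passed in either model with the arrays named here. Of 21 measured, 10 were on average higher in Ts65Dn, 0 of them past the threshold, with a median of -0.0024. The smallest p was that of Pde6c, a cone photoreceptor enzyme with a low signal here, 2.52 ± 0.465 in Ts65Dn and 2.11 ± 0.444 in EupTs65Dn (SD, n = 23 and n = 18), a fold of 1.33 (95% interval 1.09 to 1.61, adjusted p = 0.449). In Ts66Yah without the low-spread array 12 of 21 had a higher mean and 0 passed, with a median of 0.013 and the smallest p for Pde8a, a cAMP-specific enzyme (1.23-fold, adjusted p = 0.175). With all arrays the count was 16 of 21 and the median 0.097.

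No striatal regulator or signalling gene passed in the comparisons of the following lists. Of 17 striatal transcription factors, 4 averaged higher in Ts65Dn and 0 passed, with a median of -0.044. Ebf1, a factor of direct-pathway neurons, had the smallest p, at 8.61 ± 0.246 in Ts65Dn and 8.76 ± 0.178 in EupTs65Dn, a fold of 0.904 (95% interval 0.820 to 0.997, adjusted p = 0.856). In Ts66Yah 9 of the 17 averaged higher without the low-spread array (median 0.0060) and 12 with all arrays (median 0.13), and 0 passed in either. Without that array Ebf1 again had the smallest p of its list, with a fold of 1.11 (1.02 to 1.22, adjusted p = 0.316), and the difference between the models was -0.30 (adjusted p = 0.395).

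Of 34 other striatal neuron genes, 16 averaged higher in Ts65Dn and 0 passed, with a median of -0.0053. Crym, a thyroid hormone binding protein, had the smallest p (1.16-fold, adjusted p = 0.652). In Ts66Yah without the low-spread array 24 of 34 had a higher mean and 0 passed, with a median of 0.044, and Rgs14, a G protein regulator, had the smallest p (0.811-fold, adjusted p = 0.251). With all arrays the count was 25 of 34 and the median 0.13. Of 41 genes of dopamine and cAMP signalling, 17 averaged higher in Ts65Dn and 0 passed, with Akap5, a kinase anchor, at 0.889-fold (adjusted p = 0.783). In Ts66Yah 23 of 41 had a higher mean without the low-spread array (median 0.011), against 35 of 41 with all arrays (median 0.15), so this count rests on 1 array. In neither case did any of the 41 pass in limma, and without that array Ppp1cc, a catalytic subunit of protein phosphatase 1, had the smallest p (0.922-fold, adjusted p = 0.180).

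Retinoic acid genes, the setting of Rarb, averaged higher in Ts65Dn in 11 of 17 cases and 0 passed, with Rdh10, which makes retinaldehyde, at 1.14-fold (adjusted p = 0.792). In Ts66Yah without the low-spread array 13 of 17 had a higher mean and 0 passed, with a median of 0.12, and with all arrays it was 14 of 17, also with 0.12. Without that array Aldh1a2, which makes retinoic acid, had the smallest p, at 1.28-fold (95% interval 1.11 to 1.48, adjusted p = 0.122). Of 15 neuropeptide genes, 9 averaged higher in Ts65Dn and 12 in Ts66Yah without that array, and 0 passed in either. Their smallest p were those of Pomc in Ts65Dn (1.23-fold, adjusted p = 0.804) and Sst in Ts66Yah (1.12-fold, adjusted p = 0.229).

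Markers of other regions and cells were read in the same way, beside the 49.0% of all probe sets that had a higher mean in Ts65Dn. Of 14 probe sets for cortical excitatory neurons, 2 had a higher mean in Ts65Dn, with a median of -0.062 and Mef2c at 0.942-fold (adjusted p = 0.895). Of 16 for midbrain and hindbrain, 15 had a higher mean in Ts65Dn, with a median of 0.14 and Foxa1 at 1.25-fold (adjusted p = 0.835). For 19 diencephalon and hypothalamus probe sets the count was 12 with a median of 0.093, and for 15 of interneurons it was 6, with Maf at 0.860-fold (adjusted p = 0.449). None of these passed, and their part in the values of the members was not tested.

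The remaining lists held 7 of 14 radial glia and progenitor probe sets with a higher mean in Ts65Dn, led by Hes5 (1.13-fold, adjusted p = 0.707). They also held 4 of 8 choroid plexus probe sets, led by Calml4 (1.21-fold, adjusted p = 0.717), and 6 of 14 of microglia, vessels and blood, led by Col3a1 (1.15-fold, adjusted p = 0.850). In Ts66Yah without the low-spread array the midbrain and hindbrain list had a higher mean in 12 of 16 cases, with a median of 0.14 and Pax5 at 1.35-fold (adjusted p = 0.138), and with all arrays in 13 of 16, also with 0.14. The cortical list did so in 7 of 14 cases (median 9e-05), with Cux1 at 0.928-fold (adjusted p = 0.298), against 11 of 14 with all arrays (median 0.16). Interneuron probe sets did so in 10 of 15 cases without the low-spread array and 13 of 15 with all arrays, and diencephalon and hypothalamus probe sets in 7 of 19 without it (median -0.040) and 11 of 19 with all arrays (median 0.012). For radial glia the counts were 8 of 14 and, with all arrays, 9, for choroid plexus 5 of 8 and 6, and for microglia, vessels and blood 10 of 14 and 11. Lhx1 of the diencephalon list (1.16-fold, adjusted p = 0.471), Folr1 of the choroid plexus (1.15-fold, adjusted p = 0.484) and Cldn5 of vessels (0.914-fold, adjusted p = 0.280) had the smallest p of their lists without that array.

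**Figure D4:**
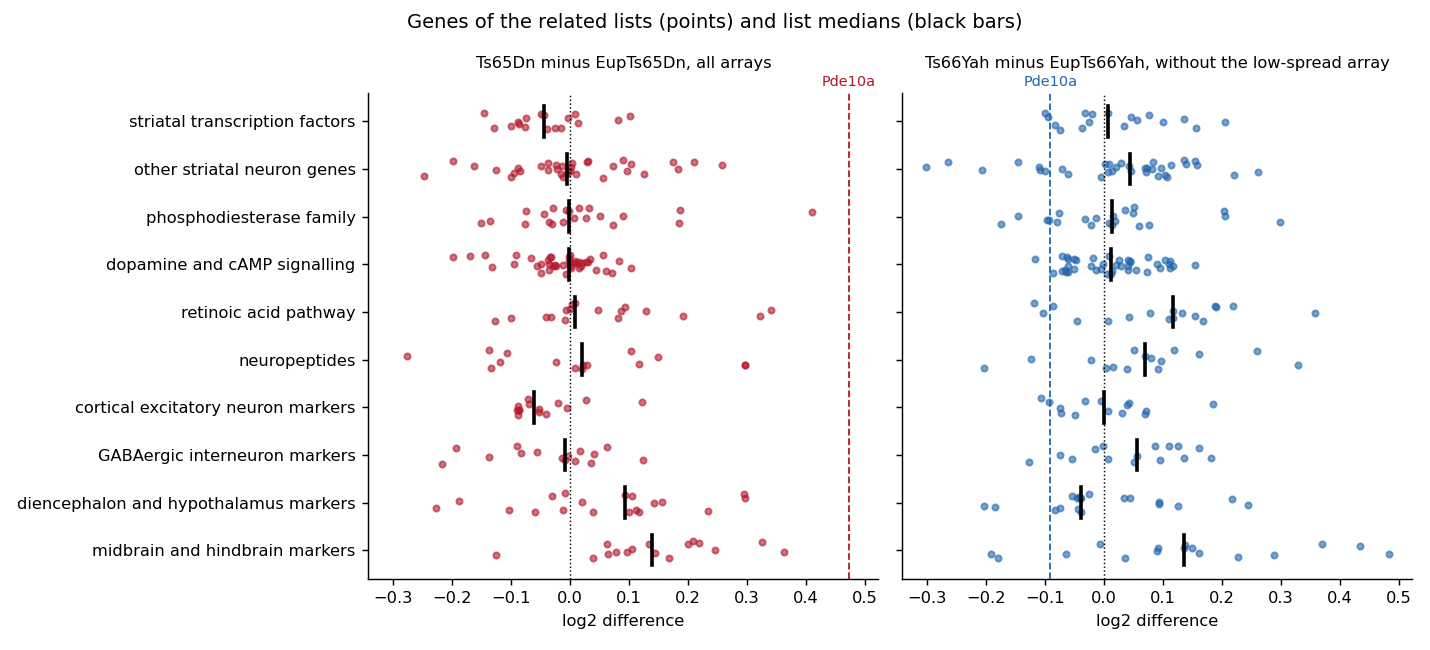
Log2 difference, trisomic minus euploid, of each probe set on 10 of the lists in Ts65Dn (left, all arrays) and Ts66Yah (right, without the low-spread array); black bars are list medians and the dashed line is Pde10a. In Ts65Dn the Pde10a value of 0.47 lies beyond every point shown, of which Pde6c at 0.41 is the nearest; in Ts66Yah Pde10a, at -0.091, lies within the lists.

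Pde10a varied little among embryos of 1 genotype, with a within-group SD of 0.165 in the Ts65Dn colony and 0.189 in the Ts66Yah colony without the low-spread array, where the median probe set had 0.322 and 0.318. Whether the other members varied with it was read from Pearson's r after each group's mean had been subtracted, 14 relations in all. In the Ts65Dn colony (n = 41) r ran from -0.077 for Tac1 to 0.26 for Ppp1r1b (Spearman's rho 0.16, permutation p = 0.10 for r and 0.33 for rho). Of the 7 genes 0 passed in limma, against 0% of 22205 probe sets, of which 2004 had an unadjusted p under 0.05, and 0 of the 7 did. By Spearman's rho 3 probe sets and 0 of the 7 genes passed. Without the 2 embryos farthest from the median of Pde10a, r for Ppp1r1b was 0.079. Without Ts65Dn replicate 18 instead (n = 40), r for Ppp1r1b was 0.38 (limma adjusted p = 0.332). In that setting 30 probe sets and 0 of the 7 genes passed in limma. An unadjusted p under 0.05 was then found for 1 of the 7 and for 2462 of all probe sets.

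In the Ts66Yah colony without the low-spread array (n = 47) 2 of the 7 genes passed, where 20.4% of all probe sets passed the same test, so the count says little about the members. Rarb had r = 0.50 (rho 0.54, permutation p = 0.00033 for r and 8e-05 for rho, limma adjusted p = 0.00902) and Penk r = -0.45 (rho -0.46, permutation p = 0.0023 for r and 0.0013 for rho, limma adjusted p = 0.0200). Without the 2 embryos farthest from the median of Pde10a, r was 0.61 for Rarb (adjusted p = 0.00965) and -0.39 for Penk (adjusted p = 0.105). With the low-spread array included, r was 0.65 for Rarb (rho 0.55) and 0.29 for Penk (rho -0.36), and 5 of 7 genes passed, among 14665 probe sets. The sign of Pearson's r for Penk thus turned with that array and that of Spearman's rho did not. With the SD of each array regressed out, 1303 in place of 4519 probe sets passed, and r was 0.41 for Rarb (adjusted p = 0.0937) and -0.47 for Penk (adjusted p = 0.0454).

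**Figure D5:**
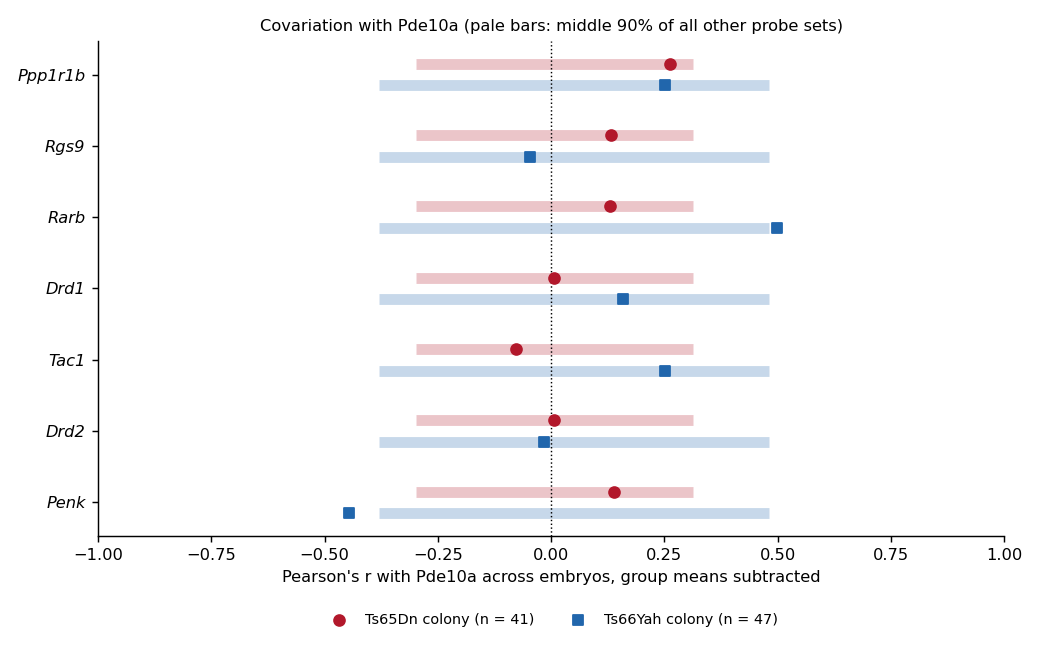
Pearson's r with Pde10a across embryos, group means subtracted, for the other 7 measured genes in the Ts65Dn colony (circles, n = 41) and the Ts66Yah colony without the low-spread array (squares, n = 47); pale bars span the middle 90% of r over all other probe sets of that colony. Rarb (0.50) and Penk (-0.45) in the Ts66Yah colony are the 2 points outside their bars.

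The 10 genes most like Pde10a in their values held no member, and so short a list says little about the members. Likeness was the mean over both colonies of the Fisher-transformed r, over 19571 named probe sets, 41 and 47 embryos. The 10 highest were Kcnv1 (0.59), Tmem181c-ps (0.57), Rgl1, Dlg2, Tardbp, Naa15, Arpp21, Gpm6b, Anapc1 and Ubr1 (0.54). Of these Arpp21, a cAMP-regulated phosphoprotein, was on the list of striatal neuron genes, with r of 0.38 in the Ts65Dn colony and 0.69 in the Ts66Yah colony. Among members Rarb ranked highest, at 1139, followed by Ppp1r1b at 2184, and Penk ranked lowest, at 16781. The 5 most negative were Map1lc3a (-0.55), Cox4i1, Rpl27, 2900060B14Rik and Ergic3 (-0.52). Values of different genes in 1 embryo come from the same array, and no cause of these relations was tested.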

How the data were processed

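The forebrain RNA of 89 embryos was measured on Clariom S arrays. The deposited values are log2 signals summarised by RMA, per the submitters' processing notes; no RMA version or setting was found there. The series text names 25 Ts66Yah arrays where labels give 24, and labels were followed. Of 22206 probe sets 19572 had 1 symbol and 2634 no name; no probe set was left out.

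Each trisomic group was set against its euploid group by limma 3.58.1 under R 4.3.3 (two-sided, Benjamini-Hochberg adjustment over all probe sets, threshold 10%), after a check on simulated data. Single genes were also tested by permutation. P-values of the main tests set a group difference against the spread between embryos. They count each embryo as independent, littermates included, and the number of arrays limits their precision. Promoters were read from RefSeq with Python 3.11.15 and figures drawn with matplotlib 3.10.9.

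Members and lists were chosen with earlier results of these data known. The text names all members, the passing members of each list with the smallest p (up to 4) or else the member with the smallest p, the 3 measured neighbours of Pde10a on each side, and the 10 genes most and 5 least like Pde10a. Cep43 was named after its value was seen. Alternatives were the litter as a block, sex, array SD or striatal genes as covariates, the methods' t-test, another threshold, a signal filter, centring, quantile normalization, array weights, another prior, all groups in 1 fit, and arrays or litters left out. Litter did not count as a pairing. Littermates' deviations correlated by 0.048 and 0.038 on average in the Ts65Dn and Ts66Yah colonies. Embryos of different litters gave -0.037 and -0.030 in the same order, so littermates were slightly more alike.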

Additional observations from a re-analysis of the deposited data

Results flagged for a closer look

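The effect on Pde10a differed between the models by a test of the difference itself: 0.47 in Ts65Dn and -0.060 in Ts66Yah, a difference of 0.53 on the log2 scale (limma adjusted p = 0.00196 over 22206 probe sets). Pde10a was higher in 23 of 23 Ts65Dn embryos and in 9 of 24 Ts66Yah embryos than the median of their euploid group.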

How the results depend on the processing

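The count of measured genes past the threshold was 1 in Ts65Dn, 0 in Ts66Yah and 1 for the difference between models under each of 20, 22 and 27 alternatives. These counts are given without the share of all probe sets passing under each alternative. Pde10a ranged from 0.44 to 0.49 in Ts65Dn (adjusted p 6.58e-10 to 6.39e-05), from -0.20 to -0.0035 in Ts66Yah (0.285 to 0.983) and from 0.48 to 0.68 for the difference (2.48e-07 to 0.0907). With the litter as a block its values were 0.49, -0.092 and 0.58, and no call changed. 2 settings were chosen after seeing the data: list counts without doubted arrays, and leaving out the low-spread array with the arrays that go against their sex label, which gave 0.44, -0.15 and 0.59 (sex check). Over all probe sets, 38 passed in Ts66Yah, 207 once the low-spread array was left out and 326 without it and the 4 at the other genotype's level (the doubted arrays), and 2, 33 and 34 for the difference.

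Changes of sign in the 3 comparisons were those of genes that did not pass in any of them. In Ts65Dn Rarb became 0.016 (litter block), 0.021 (array SD), 0.0022 (quantile normalization) and 0.0046 (sex check), and Drd1 -0.0042 (array SD) and -0.0014 (striatal genes as a covariate). In Ts66Yah Rarb became -0.077 (array SD), -0.042 (striatal genes), -0.013 (no low-spread array), -0.025 (without 6 EupTs66Yah arrays of narrower spread), -0.027 (no doubted arrays) and -0.059 (sex check), while Tac1 became -0.0031 and Rgs9 -0.0073 without those 6.

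For the difference, array SD gave Ppp1r1b 0.10, Penk 0.049, Tac1 0.043, Rgs9 0.027 and Rarb 0.092; striatal genes gave Ppp1r1b 0.055 and Rarb 0.030; array weights gave Drd2 0.0068, Ppp1r1b 0.091, Tac1 0.017 and Rgs9 0.0021. Without the low-spread array Ppp1r1b was 0.036 and Rarb 0.010, without the narrower arrays Drd2 0.072, Ppp1r1b 0.052, Tac1 0.049, Rgs9 0.034 and Rarb 0.022, without the doubted arrays Ppp1r1b 0.014 and Rarb 0.0041, and by the sex check Drd2 0.016, Ppp1r1b 0.11, Tac1 0.047 and Rarb 0.063.

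Leaving out each litter gave, in Ts65Dn, Drd1 -0.11 to 0.055, Rgs9 -0.021 to 0.055, Tac1 -0.0033 to 0.077 and Rarb -0.036 to 0.025, in Ts66Yah Rarb -0.028 to 0.16, and for the difference Drd1 -0.0013 to 0.19, Drd2 -0.25 to 0.10, Ppp1r1b -0.13 to 0.073, Rgs9 -0.16 to 0.0085 and Rarb -0.16 to 0.026.

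For likeness to Pde10a in the Ts66Yah colony, 2 genes passed, where 4519 of 22205 probe sets did. Without the 2 farthest arrays the count was 1, where 1792 probe sets passed. It was 5 with the low-spread array, where 14665 passed, so these counts say little about the members. That array gave r of -0.12 for Drd1, 0.0035 for Drd2, 0.29 for Penk (rho -0.36) and 0.39 for Rgs9. Other r that changed sign were, in the Ts65Dn colony, Drd1 -0.0027 (no array at the other genotype's level), Drd2 -0.11 (2 farthest left out) and -0.023 (array SD) and Rarb -0.017 (litter means), and in the Ts66Yah colony Drd2 0.048 (2 farthest left out) and Rgs9 0.0071 (litter means). The causes of these changes were not tested. Adora2a could not be run, and dim signals (T2, Pabpc6, 1700010I14Rik, Pde6c) limit what their folds show.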
